A study of Mus musculus with 8 samples.

Results

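The genes described here are 10 genes of oligodendrocyte precursors and myelin, read on every probe set of a mouse whole-genome array that is annotated to 1 of them alone. They were chosen by name and gave 25 probe sets of the 34945 annotated to a single gene, and 10 of the 18193 genes so measured. Their roles differ: the compact myelin proteins Mbp and Mobp, the surface and adhesion proteins of myelin Mog, Mag, Omg and Cldn11, the cytoplasmic enzyme Cnp, the precursor proteoglycan Cspg4, and the markers of committed precursors and new oligodendrocytes Gpr17 and Enpp6. Mbp had 8 probe sets, Mobp 5, Cnp 3, Cspg4 and Enpp6 2 each and the other 5 genes 1 each.

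RNA came from 3 cell types, all labelled wild type. Neural precursor cells (NPC, 3 arrays) were made from ES cells through embryoid bodies and selection in ITSFn medium and then kept in FGF2 and EGF2; the labels describe them as uniformly positive for nestin and Sox2 and able to form neurons, astrocytes and oligodendrocytes. Primary mouse embryonic fibroblasts (MEF, 2 arrays) were grown in medium with serum, with no strain or embryonic age given. The ES cells, V6.5 on 3 arrays, were grown with leukemia-inhibiting factor on irradiated MEF feeders and then passaged on gelatin to remove these. Whether the arrays of a cell type stem from separate cultures is not stated in the labels. The p-values therefore reflect array-to-array spread alone, possibly of technical origin.

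Oligodendrocytes arise from precursors that carry the receptor Pdgfra and the proteoglycan Cspg4 and depend on the transcription factors Olig2, Sox10 and Nkx2-2. As they leave the cell cycle they pass through a stage marked by Gpr17, Bcas1 and Enpp6, and the factor Myrf then switches on the genes of the myelin sheath. Cspg4, also known as NG2, is in addition a classic marker of pericytes and of other mesenchymal cells.

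Values are log2(intensity + 16) after quantile normalization, so differences of dim probe sets are understated, and levels of different probe sets cannot be ranked as amounts of RNA. A difference counted as called if its limma adjusted p lay below 0.05 and its size reached 1 on the log2 scale. Each gene was read on its brightest probe set over the 8 arrays, with its further probe sets beside it. The 3 groups matched their labels: 4 of 5 NPC markers were called higher in NPC than in ES cells (Sox2, at -0.98, was not), all 5 fibroblast markers were higher in MEF than in ES cells, and all 5 ES markers were lower in NPC and in MEF than in ES cells. Arrays of a group correlated at 0.967 or more and arrays of different groups at 0.872 or less. The scaling set the balance of calls against MEF: among all genes called between NPC and MEF, those higher in NPC made up 43.1% after quantile normalization, 25.9% after median centring and 12.5% without rescaling. Without rescaling, the median over genes was -0.43. Between MEF and ES cells these shares of calls higher in MEF were 48.9%, 65.1% and 79.3%, and the unscaled median was 0.32.

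Some members differed between cell types, and they did so in different ways. Of the 4 called in any comparison, Cnp had its highest level in NPC. Cspg4 was high in MEF, while Mobp and Mbp on their brightest probe sets were highest in ES cells, at modest intensity. Neither of these probe sets was called between MEF and ES cells, and the Mbp calls rest on that probe set alone. Mog, Mag, Cldn11, Omg, Gpr17 and Enpp6 were called in no comparison. Between NPC and ES cells 1 of 10 genes was higher and 2 were lower, while 22.9% of all genes were called in that comparison (10% higher and 12.9% lower). Between NPC and MEF 1 was higher and 3 were lower, against 18.5% of all genes called (7.95% higher and 10.5% lower). In MEF against ES cells 1 was higher and none lower, with 25% of all genes called (12.2% higher and 12.8% lower). Counted by probe set, 2 of 25 were higher and 5 lower in NPC than in ES cells, where 20.1% of all probe sets were called (9.69% higher and 10.4% lower). For NPC minus MEF, 1 was higher and 4 were lower, beside 17.5% of all probe sets (7.84% higher and 9.68% lower). For MEF minus ES, 2 were higher and 2 lower, beside 22.3% (11.7% higher and 10.5% lower). With so few members, such counts are no result about the members as a group. The median log2 difference of the members was -0.16, -0.17 and -0.09 in the same order, and that of all genes -0.05, 0.01 and -0.04. The NPC arrays serve both comparisons of NPC and the ES arrays both comparisons with ES cells, so these are not independent.

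**Figure D1:**
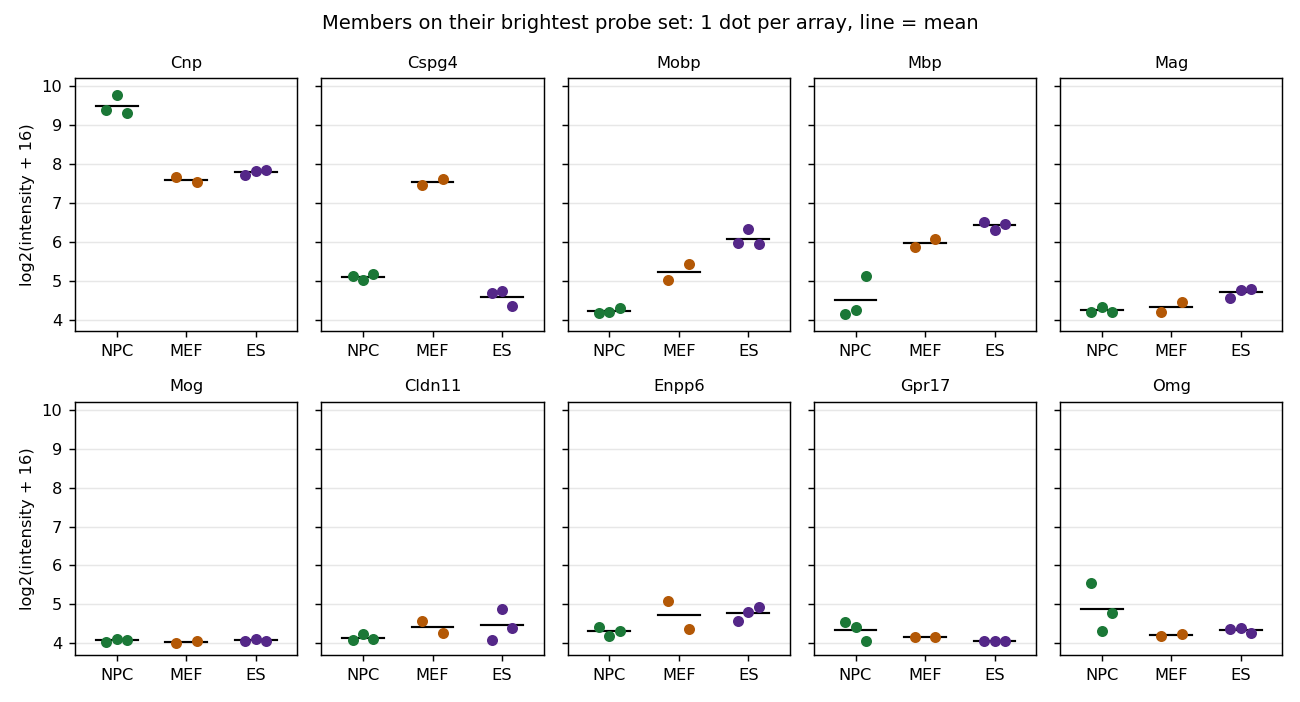
Quantile normalized log2(intensity + 16) of the 10 members on their brightest probe set; each dot is an array of NPC, MEF or ES cells and the line is the group mean. Cnp lies highest on the 3 NPC arrays and Cspg4 on the 2 MEF arrays, Mobp and Mbp lie highest on the ES arrays, and the other 6 members reach at most 5.55 on any array.

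The stretches of 250 bases before the annotated start of the 3 called genes for which RefSeq promoters were at hand (GRCm38.p6) are shown to set their sequence beside their pattern. Capitals mark ACAAAG or its reverse complement CTTTGT, the core recognised by HMG-box factors of the SOX and TCF families. This motif was chosen after the sequences had been read. They are Cnp at chr11:100574689-100574938, Mobp at chr9:120149492-120149741 and Cspg4 at chr9:56864854-56865103, all on the plus strand.
Cnp: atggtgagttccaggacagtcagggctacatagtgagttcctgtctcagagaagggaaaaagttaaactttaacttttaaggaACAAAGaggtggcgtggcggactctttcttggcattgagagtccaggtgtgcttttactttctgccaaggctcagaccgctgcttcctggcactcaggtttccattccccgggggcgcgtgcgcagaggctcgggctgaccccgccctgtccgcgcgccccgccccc
Mobp: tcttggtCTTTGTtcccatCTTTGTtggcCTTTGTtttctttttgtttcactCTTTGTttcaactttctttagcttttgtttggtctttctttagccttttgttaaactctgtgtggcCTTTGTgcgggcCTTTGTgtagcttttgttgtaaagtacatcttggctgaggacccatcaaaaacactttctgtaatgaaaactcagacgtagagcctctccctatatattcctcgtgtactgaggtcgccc
Cspg4: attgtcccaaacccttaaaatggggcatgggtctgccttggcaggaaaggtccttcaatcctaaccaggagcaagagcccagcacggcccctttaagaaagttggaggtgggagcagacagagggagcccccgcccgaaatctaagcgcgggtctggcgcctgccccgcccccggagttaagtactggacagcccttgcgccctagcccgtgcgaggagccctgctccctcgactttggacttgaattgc

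The Mobp stretch held 6 copies of the motif, all as CTTTGT. Of 32851 promoters of this length, that of Mobp itself was the only 1 to reach this number (0.00304%), while 16.5% hold at least 1 copy on either strand. As the motif was chosen after the sequences had been read, this rarity is no measure of enrichment. Cnp held 1 copy and Cspg4 held 0. The base composition also differed, with 40.8% G and C and 4 CpG dinucleotides in Mobp, 57.2% and 13 in Cnp, and 60.4% and 12 in Cspg4, against medians of 52.4% and 6 over all promoters. Cnp and Cspg4 each held 2 copies of the GC box CCGCCC or GGGCGG, a number that 16.7% of promoters reach, and Mobp held 0. The E-box CANNTG, the core bound by bHLH factors such as Olig2, occurred in 66.2% of promoters, with 1 copy in Cnp and 0 in Mobp and Cspg4. RefSeq promoters were matched for 7 of the 10 members, and of the other matched members Mog, Enpp6 and Cldn11 held 0 copies of ACAAAG and 2 of the 3 Mag promoters held 1. These letters describe the windows and are not evidence of binding.

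Cnp encodes a cyclic nucleotide phosphodiesterase that is abundant in the non-compact myelin of oligodendrocytes and is made early in the lineage. Its brightest probe set read 9.40, 9.78 and 9.32 on the NPC arrays, 7.66 and 7.53 on the MEF arrays, and 7.72, 7.82 and 7.85 on the ES arrays. The NPC arrays lay above all others, and the MEF and ES values differed by little. The log2 difference was 1.70 ± 0.13 (SE) for NPC minus ES (3.26-fold, limma adjusted p = 5.01e-06) and 1.91 ± 0.14 for NPC minus MEF (3.75-fold, limma adjusted p = 7.79e-06). For MEF minus ES it was -0.20 (limma adjusted p = 0.305), not called. On the array scale the signal stood at the 91.7th to 93.8th percentile of all probe sets on the NPC arrays and at the 77.9th to 80.9th on the MEF and ES arrays, so Cnp signal was above the middle of the range in all 3 cell types.

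The other Cnp probe sets pointed the same way in NPC, with smaller differences. Probe set 1449296_a_at read 6.94, 6.68 and 6.99 on the NPC arrays, 6.06 and 6.25 on the MEF arrays and 5.41, 6.10 and 5.49 on the ES arrays. It was called for NPC minus ES (1.202, limma adjusted p = 0.00114) and not for NPC minus MEF (0.71). Probe set 1418980_a_at gave 0.69 for NPC minus ES and 0.87 for NPC minus MEF, both under the minimum. On all 3 probe sets the NPC arrays lay above every MEF and ES array. The brightest probe set carries the suffix _x_at, which the maker gives to probe sets with probes that also match other sequences, and without the suffixes _x_at and _s_at the NPC minus MEF call of Cnp ended (0.71, limma adjusted p = 0.0375).

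Of 9 astrocyte genes, 5 were higher in NPC than in ES cells, where 22.9% of all genes were called (10% higher). Sparcl1 (7.01), Slc1a3 (4.08), a glutamate transporter of astrocytes and radial glia, and Aldoc (2.27) led, and Gja1 alone was called lower (-2.77). Their patterns were not all that of Cnp, as Aldoc was also far lower in MEF than in ES cells (-5.17). Their summed deposited intensity was 5879 to 8092 on the NPC arrays, 5179 to 5280 on the MEF arrays and 2286 to 3264 on the ES arrays, with none of the 9 listed at 0. The MEF sum was mainly that of Gja1, which read 11.70 and 11.69 there, while the next highest, Sparcl1, read 5.58 and 5.82. Deposited intensities were not rescaled for such sums, and their trimmed mean was 232 on the MEF arrays and 119 to 128 on the NPC arrays. S100b stands in this list and in that of Schwann cells. Gfap, the defining intermediate filament of astrocytes named here with its values known, lay between 4.91 and 5.08 on the NPC arrays, at 5.09 and 5.33 on the MEF arrays and between 5.16 and 5.20 on the ES arrays. The part of such cells in the Cnp result was not tested. In RNA from whole cultures, fewer cells of a type and less RNA per cell cannot be told apart.

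**Figure D2:**
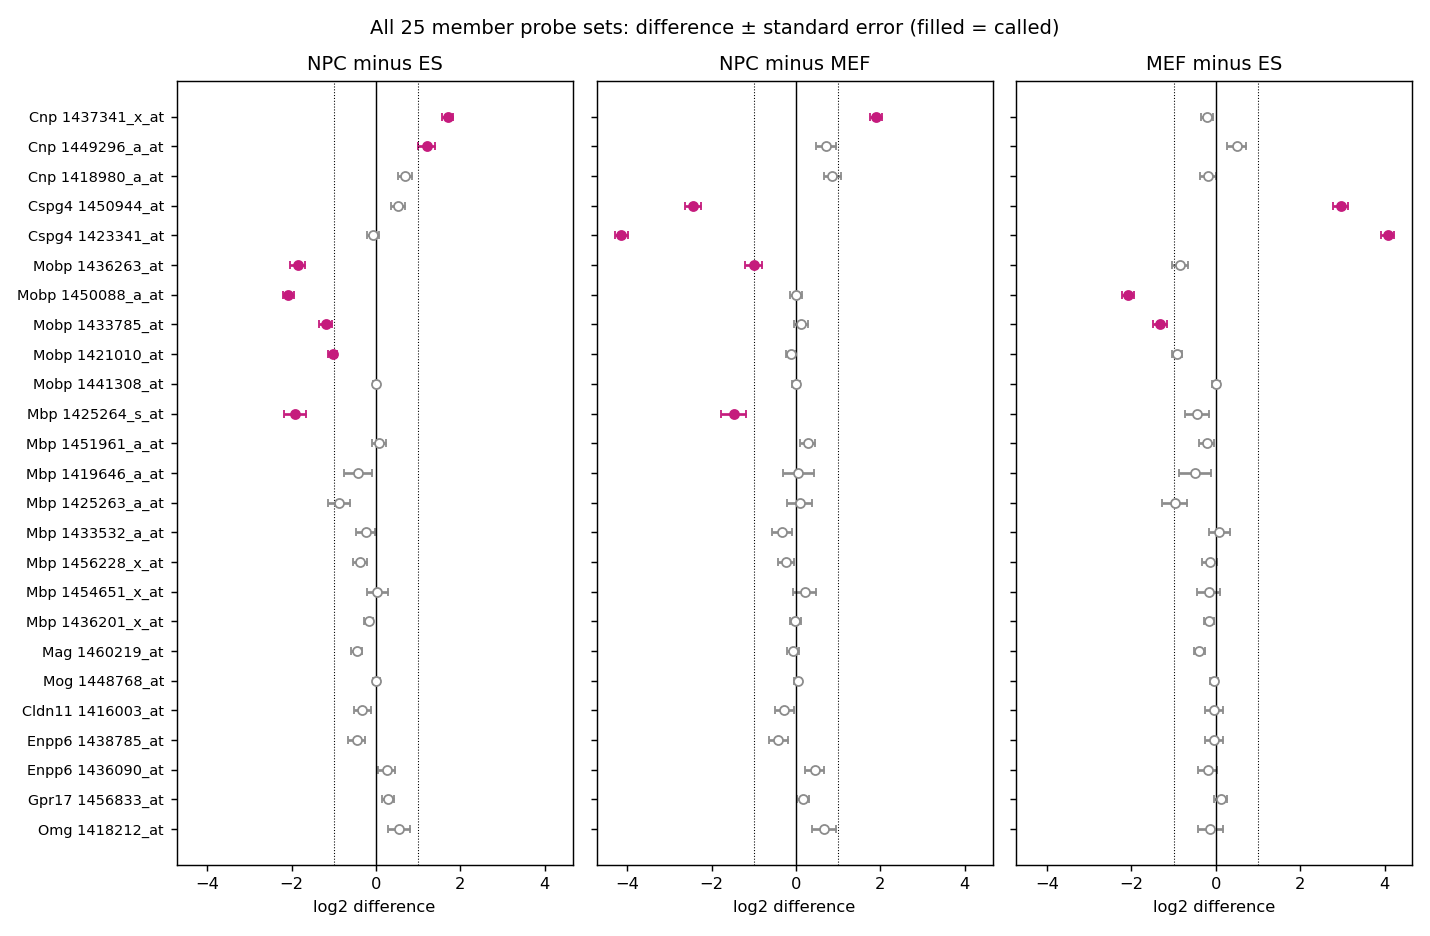
Log2 differences with standard errors for all 25 member probe sets in the 3 comparisons; filled points were called and dotted lines mark the minimum of 1. The 3 Cnp probe sets lie to the right in both comparisons of NPC, both Cspg4 probe sets separate MEF from the other cell types, and 4 of 5 Mobp but 1 of 8 Mbp probe sets were called lower for NPC minus ES.

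Cspg4 encodes a transmembrane chondroitin sulfate proteoglycan. Its brightest probe set read 5.11, 5.02 and 5.16 on the NPC arrays, 7.46 and 7.63 on the MEF arrays and 4.67, 4.74 and 4.34 on the ES arrays. The MEF arrays stood far above the rest. The log2 difference was -2.44 ± 0.19 for NPC minus MEF (5.44-fold, limma adjusted p = 9.12e-06) and 2.96 ± 0.19 for MEF minus ES (7.77-fold, limma adjusted p = 2.03e-06). Between NPC and ES cells it was 0.51 (limma adjusted p = 0.034), under the minimum, although the NPC arrays lay above the ES arrays. With a pseudocount of 1 that difference was 1.16 and called (limma adjusted p = 0.0296).

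The other Cspg4 probe set, 1423341_at, separated MEF more widely. Its deposited intensity was 0.549, 0.589 and 0.641 on the NPC arrays, 408 and 479 on the MEF arrays and 2.03, 0.749 and 1.49 on the ES arrays. This put it between percentiles 2.48 and 4.18 of the NPC arrays and at percentiles 83.1 and 85.0 of the MEF arrays. The log2 differences were -4.14 for NPC minus MEF and 4.07 for MEF minus ES (limma adjusted p = 1.33e-07 and 1.45e-07). It gave -0.07 for NPC minus ES, so the probe sets of Cspg4 did not share a direction between those cell types.

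Some pericyte and smooth muscle genes shared the high MEF level of Cspg4, and others did not. Of the 10 on that list, Cspg4 itself included, 6 were lower in NPC than in MEF and none was called higher. Of all genes, 18.5% were called there (10.5% lower). Acta2 (-7.42), Pdgfrb, the PDGF receptor of pericytes and fibroblasts (-6.61), and Mcam (-2.94) led. Against ES cells, 5 of the 10 were higher in MEF, led by Pdgfrb (5.22), Acta2 (3.09) and Cspg4, and Notch3 was lower (-1.93). Des was near level (0.03). Of all genes, 25% were called in that comparison (12.2% higher). Both counts include Cspg4, so they are not independent of it. Their summed deposited intensity was 206 to 257 on the NPC arrays, 16523 to 16840 on the MEF arrays and 1443 to 1872 on the ES arrays, with none at 0. Acta2 read highest of the 10 in MEF, at 13.37 on both arrays, and in ES cells. The part of pericytes in the Cspg4 signal of MEF was not tested. Between NPC and ES cells none of the 10 was called higher and 5 were lower, led by Acta2 (-4.33), Des (-2.51) and Mcam (-1.75). Of all genes, 22.9% were called there (12.9% lower). Cspg4 did not go with these 5, at 0.51 on its brightest probe set, not called.

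Pdgfra, the growth factor receptor that defines oligodendrocyte precursors together with Cspg4 and is also borne by fibroblasts, was lowest in NPC. It read 5.16, 5.32 and 5.32 on the NPC arrays, 9.06 and 8.86 on the MEF arrays and 6.86, 6.70 and 6.73 on the ES arrays. The groups did not overlap, and the differences were -1.50 for NPC minus ES, -3.69 for NPC minus MEF and 2.20 for MEF minus ES (limma adjusted p = 1.28e-05, 1.41e-07 and 2.52e-06).

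**Figure D3:**
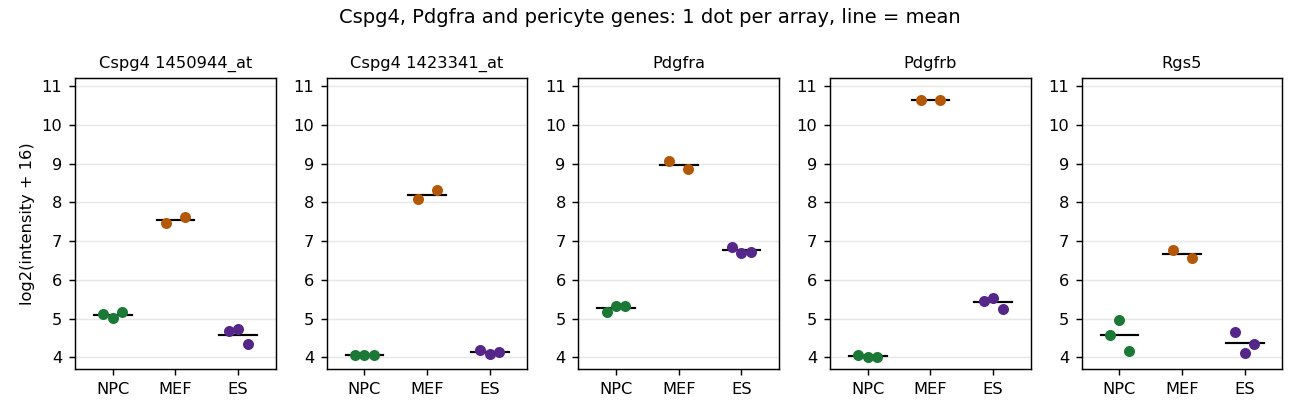
Quantile normalized log2(intensity + 16) per array of both Cspg4 probe sets, Pdgfra and the pericyte genes Pdgfrb and Rgs5, with the group mean as a line. In each panel both MEF arrays lie above all NPC and ES arrays. This does not hold for every gene of the pericyte and smooth muscle list. Of those not shown, Notch3 was lowest on the MEF arrays (6.54 and 6.63), and Des overlapped between MEF and ES cells.

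Mobp encodes a small basic protein of compact myelin. Its brightest probe set read 4.17, 4.20 and 4.31 on the NPC arrays, 5.03 and 5.43 on the MEF arrays and 5.97, 6.32 and 5.95 on the ES arrays, 3 groups without overlap. NPC minus ES was -1.85 ± 0.18 (3.61-fold, limma adjusted p = 2.52e-05), and with a pseudocount of 64 it was -0.80 and no longer called. NPC minus MEF was -1.002 ± 0.20 (limma adjusted p = 0.00335), at the minimum itself. This call ended without NPC 1 (-0.98), MEF 2 (-0.78) or ES 1 (-0.998). It also ended with the replicate number as a block (-0.99), array weights (-0.96), median centring (-0.94), a pseudocount of 64 (-0.36), or probe sets averaged per gene (-0.20). MEF minus ES was -0.85, not called, and reached -1.03 without MEF 2 (limma adjusted p = 0.0124).

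Of the further Mobp probe sets, 3 of 4 were also called lower in NPC than in ES cells, at -2.08 for 1450088_a_at, -1.197 for 1433785_at and -1.03 for 1421010_at. Probe set 1450088_a_at lay between percentiles 62.5 and 64.2 on the ES arrays, where its deposited intensities were 56.0, 53.7 and 40.1. On the NPC arrays it was at 1.05, 0.709 and 0.952, and on the MEF arrays at 1.22 and 1.51. It was low in both NPC and MEF, and MEF minus ES was -2.08 (limma adjusted p = 3.41e-06), as it was -1.32 for 1433785_at. The intermediate MEF level was seen on the brightest probe set and not on 1450088_a_at or 1433785_at. Probe set 1441308_at reached at most the 7.58th percentile on all 8 arrays.

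Mbp encodes myelin basic protein, the main structural protein of the cytoplasmic face of compact myelin. The same locus also makes the longer golli transcripts, which are known outside oligodendrocytes. Its brightest probe set read 4.13, 4.24 and 5.13 on the NPC arrays, 5.87 and 6.08 on the MEF arrays and 6.51, 6.30 and 6.46 on the ES arrays. NPC 3 lay above the other NPC arrays, and NPC stayed below MEF and ES cells. The differences were -1.92 ± 0.26 for NPC minus ES (3.79-fold, limma adjusted p = 0.000241) and -1.48 ± 0.29 for NPC minus MEF (2.78-fold, limma adjusted p = 0.00321). For MEF minus ES the difference was -0.45, not called.

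The result for Mbp rests on this 1 probe set of 8. It has the suffix _s_at, given where the probes match more than 1 transcript, which can be those of other genes. None of the 7 further probe sets was called in any comparison. They ranged from -0.88 to 0.061 for NPC minus ES and from -0.33 to 0.28 for NPC minus MEF. When probe sets with the suffixes _x_at and _s_at were left out, the gene was read on 1451961_a_at and both differences changed sign (0.061 and 0.28). The mean of the 8 probe sets gave -0.49 for NPC minus ES and -0.18 for NPC minus MEF, neither called, and a pseudocount of 64 gave -0.91 and -0.64, also not called.

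The remaining members of the myelin membrane gave little signal on any array. Mog, the outermost glycoprotein of central myelin, lay between 4.01 and 4.10 on all 8 arrays, in the lowest 7.40% of probe sets, with a deposited intensity of at most 1.004. Mag, an adhesion molecule of the inner myelin membrane, read 4.18, 4.33 and 4.20 on the NPC arrays, 4.18 and 4.44 on the MEF arrays and 4.56, 4.76 and 4.78 on the ES arrays. Its ES values lay above the others, and NPC minus ES was -0.46 (limma adjusted p = 0.0146), under the minimum of 1. With a pseudocount of 1 that difference was -1.52 and called. Cldn11, the claudin of myelin tight junctions, read 4.08, 4.23 and 4.11 on the NPC arrays, 4.57 and 4.25 on the MEF arrays and 4.10, 4.89 and 4.40 on the ES arrays, with overlap between NPC and ES cells.

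Omg, a glycoprotein that shares the Nogo receptor with Mag, read 5.55, 4.31 and 4.78 on the NPC arrays, 4.19 and 4.23 on the MEF arrays and 4.35, 4.40 and 4.26 on the ES arrays. NPC 1 was the highest array, at a deposited intensity of 29.5 against 2.92 and 9.93 on NPC 2 and NPC 3. NPC minus ES was 0.54 ± 0.26 (limma adjusted p = 0.137) and NPC minus MEF 0.67 ± 0.29 (limma adjusted p = 0.112), and neither was called.

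The stage markers among the members, Gpr17 and Enpp6, were equally dim. Bcas1, named above for the same stage, is not a member and was bright in NPC, at 11.27, 10.51 and 10.29. Gpr17, a receptor of committed precursors, read 4.56, 4.41 and 4.05 on the NPC arrays, 4.16 and 4.17 on the MEF arrays and 4.06, 4.05 and 4.05 on the ES arrays. NPC 1 and NPC 2 lay above the other arrays and NPC 3 did not, and NPC minus ES was 0.28 (limma adjusted p = 0.119). Enpp6, a choline phosphodiesterase of newly formed oligodendrocytes, spanned 4.12 to 5.09 over its 2 probe sets and the 8 arrays. The probe sets went opposite ways between NPC and ES cells, at -0.46 and 0.25, and neither was called. For orientation, 15 genes of unrelated tissues, such as those for photoreceptor, milk and sperm proteins, spanned 4.05 to 5.73 with a median at the 28.5th percentile, and none of them was called in any comparison. The 6 uncalled members reached at most the 54.6th percentile, on a single array for Omg. At such signals a small change may not be detectable.

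Of 19 transcription factors of the lineage measured, 10 were higher and 2 lower in NPC than in ES cells (all genes 22.9% called), with a median difference of 1.38. Sox6 (4.09), Sox9 (3.83) and Nkx2-2 (3.77) led, and Myrf (-3.65) and Id4 (-1.41), an inhibitor of bHLH factors, were lower. Against MEF, 8 were higher, led by Olig1 (8.71), Olig2 (7.15) and Nkx2-2 (3.98), and 2 lower (all genes 18.5% called). Olig1 read 12.69, 12.86 and 12.83 on the NPC arrays, 4.08 and 4.10 on the MEF arrays and 9.28, 9.30 and 9.29 on the ES arrays, so ES cells also gave a clear signal. Nkx2-2 was lower on NPC 1, at 6.56, than on NPC 2 and NPC 3, at 8.71 and 8.89.

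Myrf, the factor that activates myelin genes, was with Id4 one of the 2 factors called lower in NPC. It read 4.12, 4.91 and 4.31 on the NPC arrays, 5.70 and 5.58 on the MEF arrays and 8.07, 8.05 and 8.18 on the ES arrays. Its order over the cell types, lowest in NPC and highest in ES cells, was that of the brightest Mobp and Mbp probe sets. For those 2 probe sets MEF minus ES was not called (-0.85 and -0.45), and Mobp probe sets 1450088_a_at and 1433785_at did not share the order. A link between Myrf and these genes was not tested. Sox10, the SOX factor that acts with Myrf also named with its values known, lay at 5.29 to 5.47 on the NPC arrays, 5.13 and 5.48 on the MEF arrays and 5.17 to 5.49 on the ES arrays, with overlap throughout (0.05 for NPC minus ES, limma adjusted p = 0.86). In MEF relative to ES cells 3 of the 19 were higher, Zeb2 (2.92), Id2 (2.14) and Sox9 (1.496), and 3 lower, Olig1 (-5.20), Olig2 (-3.52) and Myrf (-2.46). Of all genes, 25% were called there.

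**Figure D4:**
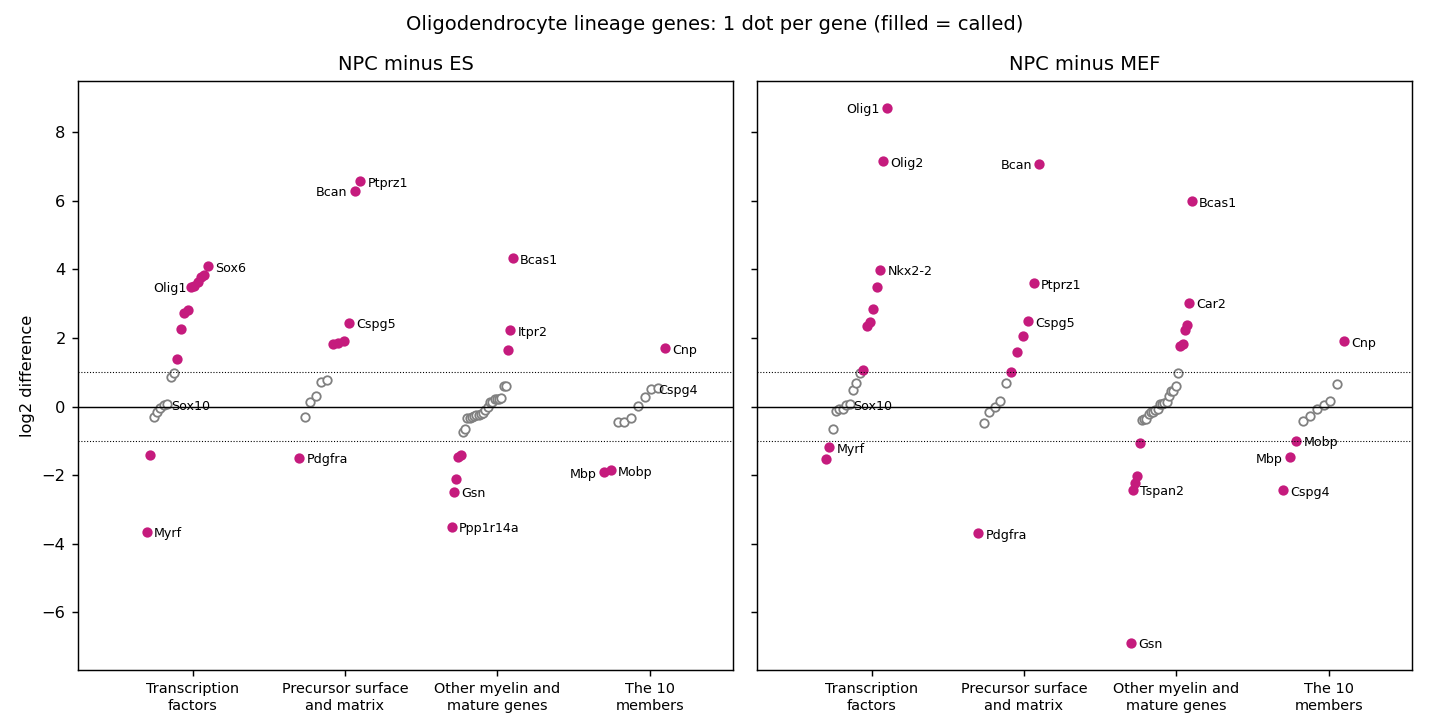
Log2 differences of the measured genes of 3 oligodendrocyte lists and of the 10 members for NPC minus ES (left) and NPC minus MEF (right); each dot is a gene on its brightest probe set, filled where called, and dotted lines mark the minimum of 1. Most called transcription factors and precursor genes lie above 0, while Myrf, Id4 and Pdgfra lie below it, and Cnp is the called member above 0 in both panels.

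Of 12 genes of the precursor surface and matrix measured, 6 were higher in NPC than in ES cells (all genes 22.9% called). Among them were Ptprz1 (6.56), a receptor phosphatase, Bcan (6.29) and Cspg5 (2.44), both brain proteoglycans, while Pdgfra was lower. Against MEF, 6 were higher, led by Bcan (7.07), Ptprz1 (3.59) and Cspg5 (2.48), and Pdgfra again was lower (all genes 18.5% called). For MEF minus ES 3 were higher, Ptprz1 (2.97), Pdgfra and Vcan (1.98), and none was lower. That made 25% of this list, and 25% of all genes were called there.

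Among 28 other genes of myelin and mature oligodendrocytes, 3 were higher and 5 lower in NPC than in ES cells (median -0.20, all genes 22.9% called). Bcas1, a marker of early myelinating oligodendrocytes, had the largest difference among the genes higher in NPC (4.32 for NPC minus ES and 5.98 for NPC minus MEF). It read 11.27, 10.51 and 10.29 on the NPC arrays, 5.19 and 4.22 on the MEF arrays and 6.21, 6.31 and 6.58 on the ES arrays. Itpr2 (2.22) and Sirt2 (1.65) were also higher than in ES cells, and Ppp1r14a (-3.50), Gsn (-2.48), an actin-severing protein, and Apod (-2.10) led the lower ones. Against MEF, 6 were higher, led by Bcas1, Car2 (3.02) and Plekhb1 (2.39), and 5 lower, led by Gsn (-6.89), Tspan2 (-2.43) and Cryab (-2.23). Of all genes, 18.5% were called there. Car2 and Plekhb1 were highest on NPC 1, at 10.41 and 8.29, against 8.66 to 8.75 and 6.43 to 6.66 on the other NPC arrays. Between MEF and ES cells 2 were higher, Gsn (4.41) and Cryab (1.91), and 9 lower, led by Car2 (-2.76), Ugt8a (-2.02), which makes galactolipids of myelin, and Plekhb1 (-1.80). Of all genes, 25% were called in that comparison.

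Mag and Omg act on neurons through receptors shared with Nogo. Of 9 genes for these receptors and partners, Tnfrsf19 (1.88) and Rtn4rl1 (1.13) were higher and the co-receptor Ngfr (-1.79) was lower in NPC than in ES cells. Against MEF, Tnfrsf19 (3.23) was higher and Lrp1 (-2.37) and Ngfr (-1.11) were lower. In MEF, Lrp1 (3.10) and Rtn4 (1.19), which encodes Nogo, were higher and Tnfrsf19 (-1.34) was lower than in ES cells. The shares of all genes called in these comparisons were 22.9%, 18.5% and 25%, in the same order.

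Of 8 genes of Schwann cells, which form peripheral myelin, 4 were higher and 2 lower in NPC than in ES cells. Cdh19 (2.12), Egr2 (2.07) and S100b (1.95) led the higher ones, and Erbb3 (-2.82) and Foxd3 (-1.83) were lower. Against MEF, S100b (1.78) and Cdh19 (1.23) were higher and Egr2 (-2.15) and Pmp22 (-1.40) were lower. Between MEF and ES cells Egr2 (4.22) and Pmp22 (3.32), a protein of peripheral myelin, were higher, and Erbb3 (-1.93) and Foxd3 (-1.08) were lower. The shares of all genes called were 22.9%, 18.5% and 25%, in the same order.

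Genes of other cell types that such cultures could hold differed as well. The shares of all genes called were 22.9% for NPC minus ES, 18.5% for NPC minus MEF and 25% for MEF minus ES. Of 11 neuron genes, 4 were higher and 3 lower in NPC than in ES cells, 5 higher and 2 lower in NPC than in MEF, and 2 higher and 3 lower in MEF than in ES cells. Of 8 macrophage and microglia genes, 2 had lower values in NPC than in ES cells and 6 lower in NPC than in MEF, and 4 were higher and 2 lower in MEF than in ES cells. The macrophage genes summed to 71.9 to 101 in deposited intensity, not rescaled, on the NPC arrays, 1714 to 1782 on the MEF arrays and 456 to 692 on the ES arrays. In ES cells Cd68 (mean 8.13) and Laptm5 (8.33) read highest, and these were the 2 called lower in NPC. The other 6 were not called between NPC and ES cells. The 25% of the macrophage list called there was near the 22.9% of all genes. Astrocyte genes gave 5 higher and 1 lower for NPC minus MEF and 1 of each for MEF minus ES. Of the 5 fibroblast markers 3 gave lower values in NPC than in ES cells and 5 lower in NPC than in MEF, of the 5 NPC markers all were higher in NPC than in MEF and 2 higher and 2 lower in MEF than in ES cells, and the 5 ES markers gave no call between NPC and MEF.

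The genes whose profile over the 8 arrays lay nearest to the 3 members with the widest range of group means were found among 18183 others by Euclidean distance of the centred log2 values. For Cspg4 they were P3h4, Hivep2 and Arhgap24, at distances of 0.333, 0.413 and 0.423. For Mbp they were Eng, Oas1a and Cdc42ep4, at 0.269, 0.501 and 0.547. For Cnp they were Abcb6, Traf4 and Soga3, at 0.393, 0.427 and 0.434.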

How the data were processed

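The authors' deposited values were linear probe set intensity, 1 per probe set and array, for 45101 probe sets on 8 arrays. The submitters' processing notes name GCOS 1.4; background and scaling settings and detection calls are not given in the sources used here. After 64 control probe sets were left out, values were transformed to log2(intensity + 16), quantile normalized and fitted with limma 3.58.1 in R 4.3.3, as 1 linear model of the 3 groups with a variance trend, over the 34945 probe sets annotated to 1 gene (932 had several, 9160 none). Adjusted p-values are Benjamini-Hochberg values over that whole table. The fit was tested on simulated data. The number of arrays limits the precision. Updating symbols through gene IDs changed 0 of them. Of 151 genes in 13 lists, 141 were measured.

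The members and lists were chosen with earlier results of these data known. Named are all members, fixed markers, up to 3 called genes per list, direction and comparison, and the nearest profiles. Promoters came from RefSeq.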

Additional observations from a re-analysis of the deposited data

How the results depend on the processing

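Under 23 alternatives, 644 of 666 recomputed member differences kept their side of the threshold, 14 lost and 6 gained a call and 2 called differences changed sign; sign changes of differences that were not called are not counted here. Without the suffixes _x_at and _s_at, an alternative chosen after seeing the data, Mbp gave 0.061 for NPC minus ES and 0.28 for NPC minus MEF, and the members called between NPC and MEF were 2 in place of 4. Without _a_at as well, which leaves no probe set of Cnp or Mbp, 1 member was called between NPC and ES cells (3 otherwise) and 2 between NPC and MEF. A pseudocount of 1 gave 5 members for NPC minus ES and 2 for MEF minus ES (1 otherwise), and a pseudocount of 64 gave 1 for NPC minus ES and 2 for NPC minus MEF. The mean of probe sets gave 2 for NPC minus MEF and 2 for MEF minus ES, as did a log2 minimum of 0.58 for MEF minus ES. Leaving out 1 array gave 3 members for NPC minus ES throughout, 3 to 4 for NPC minus MEF and 1 to 2 for MEF minus ES; the cause of these changes was not tested. Leaving out the dimmest probe sets removed the 6 members called in no comparison.

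The deviations of same-numbered arrays from their group means correlated at -0.03 to 0.05. With 2 or 3 arrays per group, this cannot exclude a shared batch. With the replicate block the members called were 3, 3 and 1, and Mobp for NPC minus MEF (-0.99) was the call lost. Genes called in the lists numbered 66, 67 and 59, and 66, 67 and 59 with the block. Of 897 recomputed list counts, 878 were within 1.5 times; the precursor list for MEF minus ES gave 5 calls with a pseudocount of 1 against 3, the other myelin genes for MEF minus ES gave 6 with a pseudocount of 64 against 11, and the pericyte genes for NPC minus ES gave 3 with that pseudocount and 2 without the 3 suffixes against 5. Over all genes, 4173, 3360 and 4553 were called, 2626, 2103 and 2937 with a pseudocount of 64, and 6768, 5795 and 7144 with the lower minimum; the deposited scaling gave 5092 between NPC and MEF.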
